A study of Mus musculus with 31 samples.

Results

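The genes described here are those of DNA replication licensing, the sliding clamp and nucleotide reduction: Mcm2, Mcm3, Mcm4, Mcm5, Mcm6, Mcm7, Pcna, Rrm1 and Rrm2. They were chosen by name for their shared function, with earlier results of these data known. They are 9 of the 18820 genes that the arrays measured with a probe set of a single gene symbol. RNA came from scrapings of the epithelial lining of the colon of male C57Bl/6J mice aged 13 weeks. All animals ate chow for 2 weeks and then a semi-synthetic diet with palm oil as the fat, which supplied 10% of energy from fat in the low-fat diet (LFD) and 45% in the high-fat diet (HFD). After 2 weeks on the diet every mouse was sedated on 6 consecutive days and infused through the rectum with 80 µL of isotonic saline. The saline was given alone, or with sodium acetate, sodium propionate or sodium butyrate at 100 mM, and tissue was taken 4 h after the last infusion. The 2 diets and 4 infusions gave 8 groups, each of 4 arrays (n = 4) except acetate on LFD (n = 3), for a total of 31. According to the labels 6 mice were infused per group, and which of them were hybridised is not stated. The p-values set differences between group means against the spread between these arrays within their groups. The carbohydrate share differs between the diets with the fat share, and the effect of either cannot be told apart.

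The proteins of Mcm2 to Mcm7 form a ring that is loaded onto DNA before S phase, which licenses each origin to fire once, and the same ring later unwinds the double helix. Pcna encodes the clamp that holds DNA polymerases on the template, and Rrm1 and Rrm2 encode the large and small subunits of ribonucleotide reductase, which makes deoxynucleotides from ribonucleotides. In the colon these genes are expressed mainly by the dividing cells of the lower crypt, and E2F transcription factors raise their transcription at the entry into S phase. In RNA from whole scrapings, fewer dividing cells and less RNA per dividing cell cannot be told apart.

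The promoters of these genes are shown because the 9 genes moved together across the arrays and are known E2F targets. Whether E2F factors had a part in that shared movement was not tested. RefSeq promoter windows (build GRCm38.p6, from 250 bases before to 50 after the transcription start) were found for 8 of the 9 genes, all but Mcm4. They were searched on both strands for the E2F-type octamers TTTCCCGC, TTTCGCGC, TTTGCCGC and TTTGGCGC, which can overlap each other, and for CCAAT. At least 1 octamer was found for 4 of the 8 genes, Mcm3, Mcm5, Mcm6 and Mcm7, whereas 2.26% of all 32851 windows of this length and 2.6% of all 27025 genes hold one. CCAAT was found for 8 of 8 genes, in 37.4% of all windows and for 41.1% of all genes. In the runs below capitals mark the E2F-type octamers, merged where a pair overlaps, and in Rrm2, the gene with the largest diet difference below, they mark CCAAT. Positions count from the start, with -1 the base before it. The upstream Mcm7 site lies within the annotated span of the neighbouring gene Ap4m1.
Mcm5, chr8:75109259-75109458, plus strand, bases -250 to -51: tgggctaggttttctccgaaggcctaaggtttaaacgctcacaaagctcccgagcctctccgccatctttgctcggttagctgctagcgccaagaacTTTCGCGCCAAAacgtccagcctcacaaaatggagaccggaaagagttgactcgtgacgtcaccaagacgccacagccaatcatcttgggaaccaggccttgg
Mcm6, chr1:128359706-128359955, minus strand, the 250 bases before the start: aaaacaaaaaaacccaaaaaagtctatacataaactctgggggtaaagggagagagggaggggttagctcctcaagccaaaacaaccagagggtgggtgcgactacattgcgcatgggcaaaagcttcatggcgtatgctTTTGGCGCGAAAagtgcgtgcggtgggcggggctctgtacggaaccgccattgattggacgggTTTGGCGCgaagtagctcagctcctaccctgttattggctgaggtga
Mcm7, chr5:138172030-138172059, minus strand, bases -176 to -147: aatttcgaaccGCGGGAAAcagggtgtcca
Mcm7, chr5:138171850-138171879, minus strand, bases 5 to 34 of the transcript: tgggtgacgacgTTTCGCGCcaatttcggt
Mcm3, chr1:20820266-20820295, minus strand, bases 18 to 47 of the transcript: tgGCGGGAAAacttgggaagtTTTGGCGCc
Rrm2, chr12:24708004-24708253, plus strand, the 250 bases before the start: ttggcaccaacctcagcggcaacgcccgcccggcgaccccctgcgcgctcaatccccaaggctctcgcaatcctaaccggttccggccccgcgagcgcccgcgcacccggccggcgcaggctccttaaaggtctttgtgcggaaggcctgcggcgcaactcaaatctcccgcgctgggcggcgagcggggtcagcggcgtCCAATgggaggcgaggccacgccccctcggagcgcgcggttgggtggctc
In Mcm5 and in the distal site of Mcm6 an octamer on each strand shares bases with the other, and Mcm3 and Mcm7 hold one on each strand apart from each other. No such octamer was found in the windows of Mcm2, Pcna, Rrm1 and Rrm2, which says only that these letters are not in these windows. Among the related lists used below, the octamers were found for 7 of 18 genes of origin loading and firing and 9 of 23 of the fork. They were found for 6 of 16 G1/S regulators, 1 of 22 genes of nucleotide supply and 1 of 19 of mitosis. In the same order of lists, CCAAT was found for 9 of 18, 12 of 23, 8 of 16, 9 of 22 and 17 of 19 genes.

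The values are log2 RMA intensities, in which a difference of 1 is a doubling. The 9 genes reached an intensity of 20 on all 31 arrays, so each was measured everywhere, and the number of arrays limits the precision. Array medians ranged from 5.14 to 5.19, and r between replicate arrays from 0.981 to 0.994. The scrapings held epithelium as labelled, with 10 of 10 pan-epithelial markers such as Epcam and Cdh1 above that intensity on every array. Their group means were 11.17 to 11.26. All 14 markers of differentiated colonocytes were also above it on every array, with group means of 11.47 to 11.58. The mean of 14 small-intestinal enterocyte markers reached 8.10 to 8.48 on propionate LFD 2, saline HFD 2, saline LFD 2 and saline LFD 3, 4 arrays in all, while none of the others exceeded 6.81. The mean of 8 smooth muscle markers reached 7.10 on saline HFD 1 and 6.80 on saline HFD 2, while no other array exceeded 6.17.

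The 9 genes shared the ends of their order over the 8 groups. All 9 had their highest group mean under propionate on LFD, and 8 of 9 had their lowest under propionate on HFD. The exception was Mcm2, which was lowest under acetate on HFD (7.45 ± 0.20, SD, n = 4) and next lowest under propionate on HFD (7.47 ± 0.29, n = 4). For the other 8 genes acetate on HFD gave the second lowest mean. The order of the groups between these ends differed from gene to gene. The mean over the 9 genes was 7.99 ± 0.22 under propionate on LFD, 7.81 ± 0.30 under saline on LFD, 7.72 ± 0.28 under butyrate on HFD and 7.72 ± 0.24 under butyrate on LFD. It was 7.70 ± 0.32 under acetate on LFD, 7.68 ± 0.19 under saline on HFD, 7.45 ± 0.11 under acetate on HFD and 7.33 ± 0.33 under propionate on HFD. Neighbours in this order did not separate: in all 63 pairs of neighbouring groups, 7 for each gene, the arrays of both groups overlapped.

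**Figure D1:**
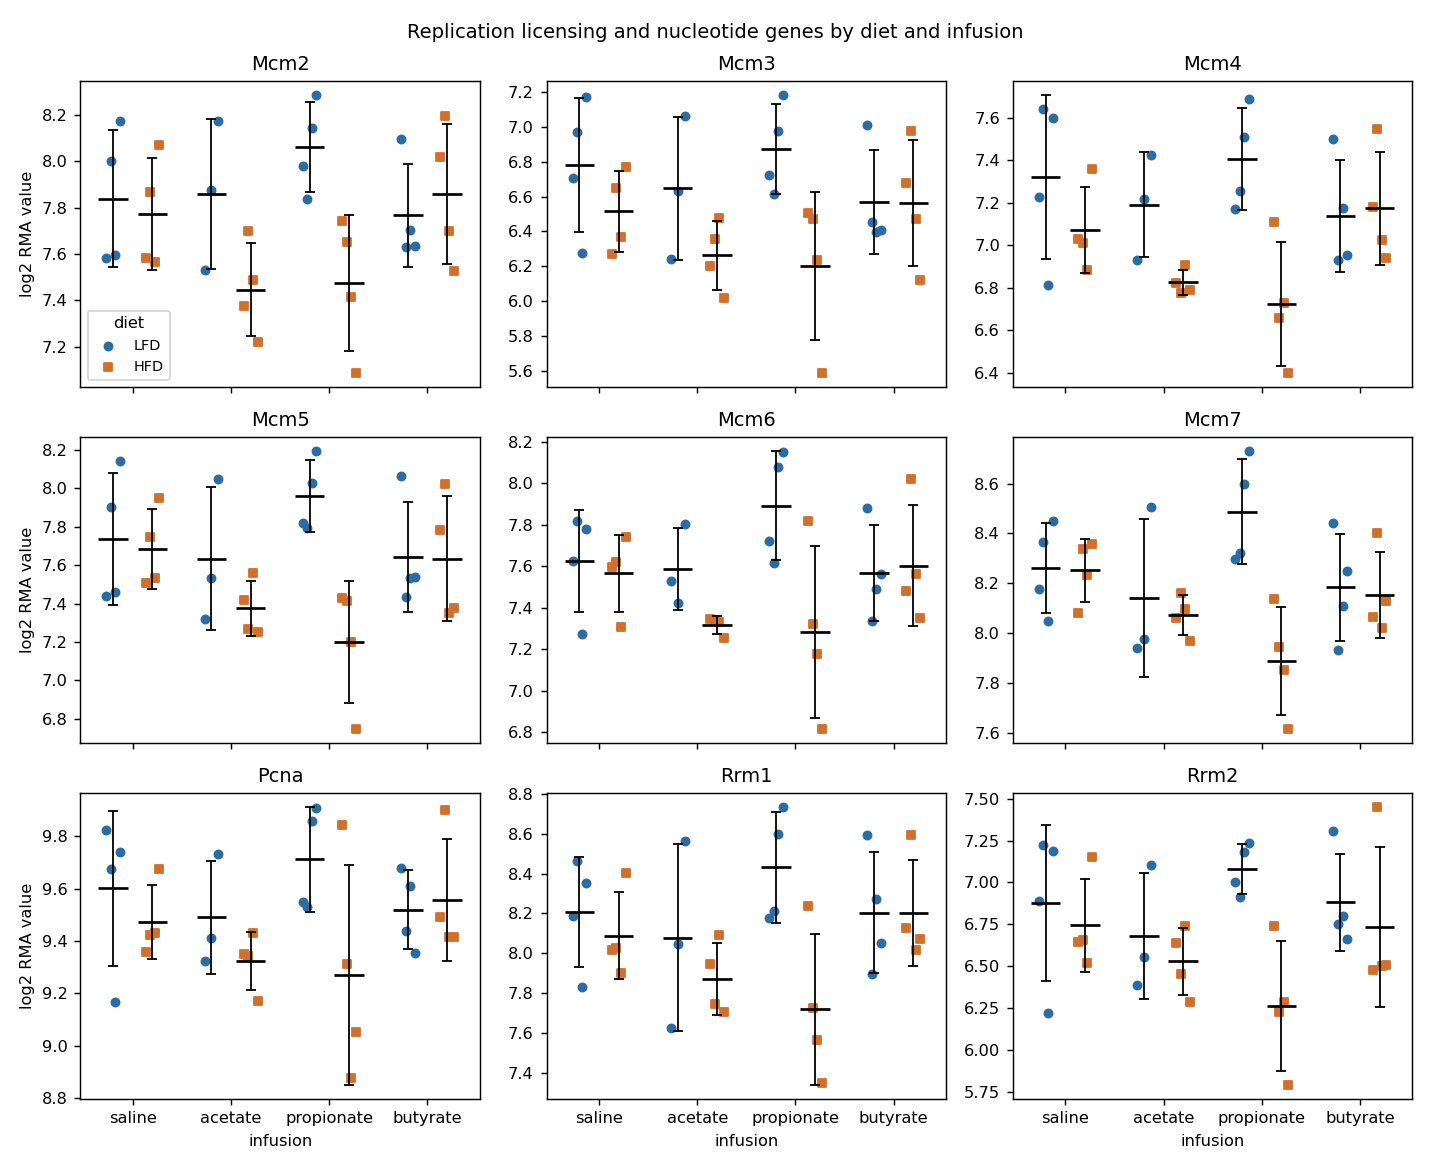
Log2 RMA value (vertical axis, a separate scale for each gene) of the 9 genes on each of the 31 arrays, by infusion (horizontal axis) and diet; wide bars are group means and whiskers 1 SD. The gap between the diets is widest under propionate, where the 4 LFD arrays of Mcm5 lie between 7.79 and 8.20 and the 4 HFD arrays between 6.75 and 7.43.

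Over all arrays the range of a gene ran from 1.03 for Pcna, a 2.05-fold span, to 1.66 for Rrm2, a 3.16-fold span. The extremes came from few arrays. Propionate LFD 4 was the highest of 31 for 8 genes, with Rrm2 highest on butyrate HFD 2 (7.45), and propionate HFD 4 was the lowest of 31 for 8 genes, with Pcna lowest on propionate HFD 3 (8.88). Groups differed in their own spread as well. On acetate HFD the 4 arrays of Mcm6 lay between 7.25 and 7.35 and those of Mcm4 between 6.78 and 6.91, and on propionate HFD those of Mcm6 lay between 6.82 and 7.82. The tests below use 1 spread pooled over the 8 groups, which understates the error of a group as variable as propionate HFD.

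The first comparison asked how the diets differed under each infusion. Under propionate the genes of licensing and nucleotide reduction were lower on HFD than on LFD. The test of all genes with limma, at a Benjamini-Hochberg adjusted p under 0.05 over 12795 genes, called 7 of the 9 genes lower, Mcm2, Mcm4, Mcm5, Mcm6, Mcm7, Rrm1 and Rrm2. In this comparison 6.87% of all genes tested were called, 4.82% lower and 2.05% higher. Mcm3 and Pcna did not pass. The median difference of the 9 genes was -0.67, beside -0.02 over all genes tested, and 9 of 9 lay below 0, as did 54.3% of all genes.

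Among the helicase genes the difference of Mcm7 had the smallest p. Mcm7 measured 8.30, 8.32, 8.60 and 8.73 on the LFD arrays and 8.14, 7.94, 7.85 and 7.61 on the HFD arrays, so that every HFD array lay below every LFD array. The difference was -0.60 ± 0.13 (SE), a level 34.1% lower on HFD (adjusted p = 0.0156, n = 4 and 4).
Mcm5 measured 7.82, 7.79, 8.03 and 8.20 on LFD and 7.43, 7.41, 7.20 and 6.75 on HFD. The diets did not overlap for this gene either, and HFD was 41% lower, a difference of -0.76 ± 0.18 (adjusted p = 0.0194). Mcm4, which belongs with Mcm6 and Mcm7 to the catalytic core of the ring, measured 7.17, 7.25, 7.51 and 7.69 on LFD and 7.11, 6.66, 6.73 and 6.40 on HFD. Its groups were separated by the narrow gap between 7.17 and 7.11, and the difference was -0.68 ± 0.17 (adjusted p = 0.023).
Mcm6 measured 7.72, 7.62, 8.08 and 8.15 on LFD and 7.82, 7.32, 7.18 and 6.82 on HFD. The groups overlapped because propionate HFD 1 lay above LFD 1 and 2, and the difference was -0.61 ± 0.17 (adjusted p = 0.0328). Mcm2 measured 7.98, 7.84, 8.15 and 8.29 on LFD and 7.74, 7.65, 7.41 and 7.09 on HFD, without overlap, a difference of -0.59 ± 0.17 (adjusted p = 0.0393). Mcm3 measured 6.72, 6.61, 6.97 and 7.18 on LFD and 6.50, 6.47, 6.24 and 5.59 on HFD. Its groups did not overlap, but its larger spread left the difference of -0.67 ± 0.22 above the threshold (adjusted p = 0.0544).

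The clamp gene Pcna showed the smallest difference of the 9 genes. It measured 9.55, 9.53, 9.86 and 9.91 on LFD and 9.84, 9.31, 8.88 and 9.05 on HFD, a difference of -0.44 ± 0.16 (adjusted p = 0.0831), and the groups overlapped through propionate HFD 1. The other Pcna probe set, which followed the first with an r of 0.999 over 31 arrays, gave -0.45 (adjusted p = 0.0772). The reductase genes showed larger differences. Rrm2, the subunit made in S phase, measured 6.999, 6.91, 7.18 and 7.23 on LFD and 6.74, 6.23, 6.29 and 5.79 on HFD, without overlap. It was 43.4% lower on HFD, -0.82 ± 0.23 (adjusted p = 0.0317), the largest difference of the 9. Rrm1 measured 8.18, 8.21, 8.60 and 8.74 on LFD and 8.24, 7.72, 7.56 and 7.35 on HFD, with propionate HFD 1 inside the LFD range, and differed by -0.71 ± 0.20 (adjusted p = 0.0311). In all, 6 of the 9 genes had no overlap between the diets, where 8.77% of all genes tested lay wholly lower on HFD.

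The calls under propionate changed when single arrays were left out. Of the 9 genes, 0 passed without propionate LFD 3, without propionate LFD 4, without propionate HFD 2 or without propionate HFD 3. The lowest limma adjusted p of the 9 was then 0.0563, 0.0595, 0.0561 and 0.0547, in that order. The calls over all genes tested fell from 879 to 33, 114, 11 and 52 in these fits. Without propionate HFD 4, 2 of the 9 genes passed, while 9 passed without propionate HFD 1. The median difference stayed between -0.79 and -0.51 whichever array was left out. Small nucleolar RNAs, which guide the modification of ribosomal RNA, moved with this contrast in the opposite direction. They were listed after their values had been seen. Of 52 such RNAs 32 were called higher on HFD, where 2.05% of all genes were called higher. The mean of the 52 was 6.75 to 7.06 on the 4 LFD arrays and 7.39 to 8.00 on the 4 HFD arrays. With that mean as a covariate the 9 differences were -0.52 to -0.36, and 0 of 9 passed (adjusted p = 0.934). Because that mean did not overlap between the 2 groups, this fit cannot settle its part in the result, which was not tested further. Without the 4 arrays high in small-intestinal markers, which include propionate LFD 2, 7 of 9 passed.

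**Figure D2:**
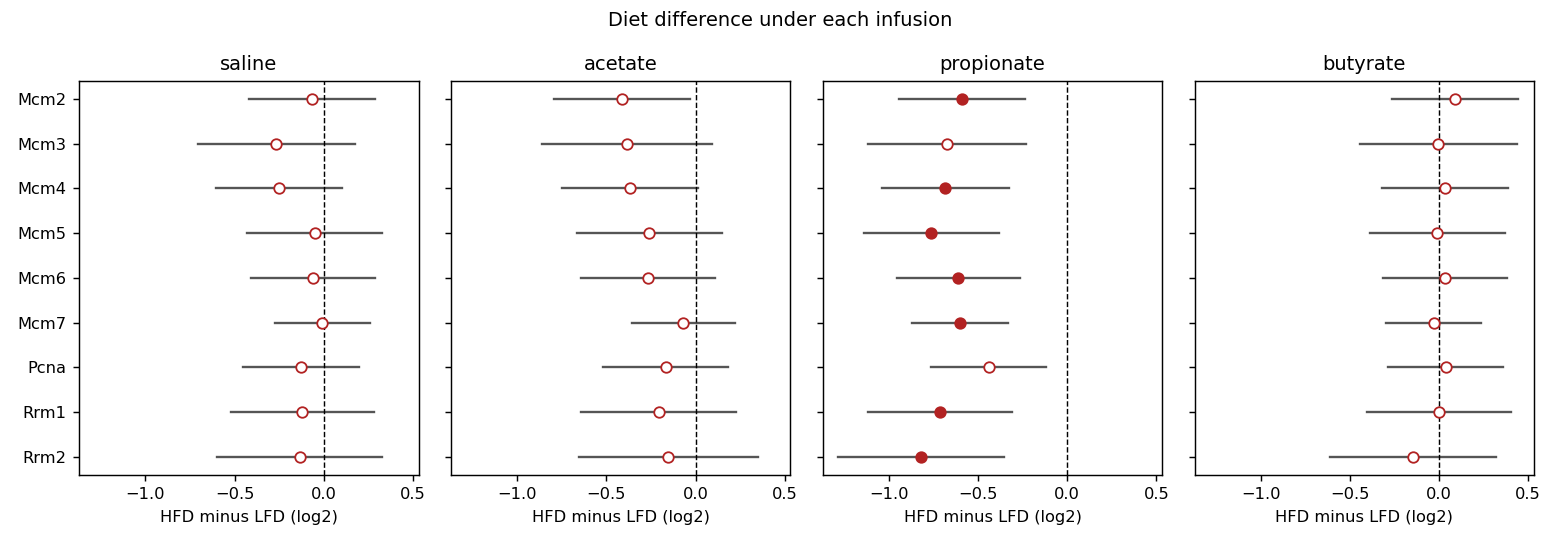
Difference between HFD and LFD (log2, horizontal axis) of each of the 9 genes under each infusion; points are estimates, lines 95% confidence intervals, and filled points passed the test. Under propionate 7 points are filled and all 9 intervals lie below 0, whereas under saline and butyrate all intervals include 0.

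Under the other infusions the test called 0 of the 9 genes, and it called 0% of all genes tested under saline, under acetate and under butyrate. Under saline the 9 differences ran from -0.27 (Mcm3) to -0.01 (Mcm7), with a median of -0.12, 0 genes at an unadjusted p under 0.05 and a lowest adjusted p of 0.75. Under acetate they ran from -0.41 (Mcm2) to -0.07 (Mcm7), with a median of -0.26, 1 gene at an unadjusted p under 0.05 and a lowest adjusted p of 0.632. Mcm4 measured 6.93, 7.22 and 7.43 on acetate LFD and 6.82, 6.78, 6.91 and 6.79 on acetate HFD. It and Mcm6 had no overlap between the diets, where 4.18% of all genes lay wholly lower. Without acetate LFD 3 the median under acetate was -0.05, and without acetate LFD 1 it was -0.42.
Under butyrate the median was 0.00, with 5 genes below 0 and 4 above, and an unadjusted p under 0.05 for 0 of them. Mcm2 measured 8.10, 7.63, 7.70 and 7.64 on butyrate LFD and 8.02, 8.19, 7.70 and 7.52 on butyrate HFD, a difference of 0.09 ± 0.17 with a 95% interval of -0.26 to 0.45. The intervals of the 9 genes under butyrate reached from -0.61 to 0.45, and for each of the 9 the difference found under propionate lay below its interval under butyrate. Whether the diet difference itself differed between propionate and butyrate was not tested.

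Taken over all 4 infusions, 9 of 9 genes lay below 0, from -0.33 (Mcm3) to -0.18 (Pcna). The median was -0.26, beside 0.01 over all genes. All 9 had an unadjusted p under 0.05, as did 21.7% of all genes. After adjustment limma called 1 of the 9, where 2.7% of all genes were called, 1.16% lower and 1.53% higher. The gene was Mcm4, 19.7% lower on HFD (-0.32 ± 0.09, adjusted p = 0.0475), below the LFD mean of its infusion on 13 of 16 HFD arrays. Rrm2 (-0.31 ± 0.12) and Mcm3 (-0.33 ± 0.11) had adjusted p of 0.112 and 0.0794. The call of Mcm4 sat at the threshold. It was absent with the replicate number as a block (adjusted p = 0.0534), without the filter on dim genes, without the intensity trend in the moderation and with all probe sets tested. It was also absent when saline HFD 1 and 2, the arrays high in smooth muscle markers, were left out, and when the level of small nucleolar RNAs was added to the fit. Mcm4 passed in 9 of the 31 fits that each left out 1 array, in which 0 to 3 of the 9 genes passed, and its adjusted p over the alternatives ran from 0.00663 to 0.106. Array weights gave 9 of 9.

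The next comparison set each acid against saline on the same diet. Of the 9 genes 0 passed in any of these 6 comparisons, in each of which limma called 0% of all genes. On HFD the propionate group lay below saline for 9 of 9 genes, with a median of -0.35 beside -0.02 over all genes. At an unadjusted p under 0.05 stood 3 of them, Mcm5, Mcm7 and Rrm2, and 11.7% of all genes. Mcm5 measured 7.51, 7.75, 7.53 and 7.95 under saline on HFD against the 7.43, 7.41, 7.20 and 6.75 given above. It was the only 1 of the 9 without overlap, where 2.96% of all genes lay wholly lower, and it differed by -0.49 ± 0.18 (adjusted p = 0.309). Mcm7 differed by -0.36 ± 0.13 (adjusted p = 0.295) and Rrm2 by -0.48 ± 0.23 (adjusted p = 0.412).
On LFD the propionate group lay on the other side. Its mean was above saline for 9 of 9 genes, with a median of 0.22 and 0 at an unadjusted p under 0.05, and the largest was Mcm6 at 0.27 ± 0.17 (adjusted p = 0.972). The sign was not stable for Mcm3, Mcm4, Pcna and Rrm2, each of which fell below 0 without saline LFD 3, and the ranges of saline and propionate overlapped for all 9 genes, where 1.56% of all genes lay wholly higher.

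Acetate and butyrate were set against saline in the same way. Acetate on HFD lay below saline for 9 of 9 genes, between -0.33 (Mcm2) and -0.15 (Pcna), with a median of -0.25, 0 at an unadjusted p under 0.05 and 95% intervals within -0.69 to 0.25. Acetate on LFD had a median of -0.12, which was -0.30 without acetate LFD 3 and 0.00 without acetate LFD 1, and 0 genes at an unadjusted p under 0.05. Butyrate had a median of -0.08 on LFD and 0.05 on HFD, and on neither diet did a gene reach an unadjusted p under 0.05 (0 of 9). Its intervals reached from -0.66 to 0.46 on LFD and from -0.47 to 0.52 on HFD.

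Whether the response to an acid depended on the diet, the question in the title of the study, was tested as the difference between the response on HFD and that on LFD. For propionate this is the same contrast as the diet difference under propionate minus that under saline. All 9 genes lay below 0, with a median of -0.55, and 6 of 9 had an unadjusted p under 0.05, beside 12.8% of all genes. None of the 9 passed after adjustment, nor did any gene of the table (0%), and the lowest adjusted p of the 9 was 0.201 for Mcm7 (-0.59 ± 0.18). Mcm5 followed at -0.71 ± 0.26 (adjusted p = 0.257), with a 95% interval of -1.24 to -0.18. The diet difference under propionate was therefore called for 7 genes, while its excess over the diet difference under saline was called for 0. The corresponding medians were -0.12 for acetate and 0.12 for butyrate, with 0 of 9 genes called, 0% of all genes called and 0 of 9 at an unadjusted p under 0.05 in both.

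The 3 acids, linear carboxylates that differ in the length of their carbon chain, were also set against each other at the same dose, time and diet. These were 6 pairs, each with 9 genes, and the adjustment ran over all genes of a pair. The test called 0 of 9 genes in every pair. It called 0% of all genes in 5 pairs and 0.0625% (8 genes) between butyrate and propionate on HFD, 4 of them small nucleolar RNAs, which were lower under butyrate. That pair showed the largest differences of the 9 genes on HFD: butyrate was above propionate for 9 of 9, with a median of 0.39, and 5 genes and 17.3% of all genes stood at an unadjusted p under 0.05. Rrm1 measured 8.13, 8.60, 8.02 and 8.07 under butyrate and 8.24, 7.72, 7.56 and 7.35 under propionate, a difference of 0.49 ± 0.20 with a 95% interval of 0.08 to 0.89 (adjusted p = 0.201). Every butyrate array was above the propionate mean for 8 of the 9 genes, yet the ranges of the 2 groups overlapped for all 9, where 5.17% of all genes lay wholly higher.
On LFD the order of these acids was the opposite. Butyrate lay below propionate for 9 of 9 genes, with a median of -0.29 and intervals within -0.75 to 0.26, and Mcm7 alone was at an unadjusted p under 0.05 (-0.30 ± 0.13, adjusted p = 0.999). Propionate lay above acetate on LFD for 9 of 9, with a median of 0.31 and intervals within -0.25 to 0.90. On HFD propionate and acetate were closer, with a median of -0.10 and intervals within -0.73 to 0.38. Butyrate on HFD lay above acetate for 9 of 9, with a median of 0.28 and intervals within -0.26 to 0.77. Mcm4 and Mcm6 had no overlap in that pair, where 2.18% of all genes lay wholly higher. Butyrate and acetate on LFD had a median of 0.01 and intervals within -0.56 to 0.70. These pairs share arrays with each other and with the comparisons above, so their directions do not count as separate evidence.

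The other genes of the replication pathway were followed in lists by role, and their genes were called only in the diet comparisons, under propionate and over all infusions. Of 23 genes that load and fire origins 6 were called lower and 0 higher, where 4.82% of all genes were called lower, with a median of -0.38 and 23 of 23 below 0. They were Mcm10 (-0.56 ± 0.13), Wdhd1 (-0.59 ± 0.15), Mtbp (-0.55 ± 0.14), Tipin (-0.58 ± 0.16), Gins1, a subunit of the complex that activates the helicase (-0.60 ± 0.18), and Cdc45, its partner at the fork (-0.60 ± 0.18). Of this list 0 were called lower without any 1 of propionate LFD 3, LFD 4, HFD 2 or HFD 3, 2 without propionate HFD 4 and 11 without propionate HFD 1.
Of 23 genes of the fork and of chromatin assembly 10 were called lower, beside the same 4.82% of all genes, and 0 higher, with a median of -0.41 and 23 of 23 below 0. Among them were Pole and Pole2, subunits of the leading-strand polymerase (-0.81 ± 0.20 and -0.70 ± 0.19), the clamp loader subunit Rfc1 (-0.41 ± 0.09) and the DNA ligase Lig1 (-0.45 ± 0.11). The histone chaperone subunit Chaf1b (-0.74 ± 0.19) and the polymerase delta subunit Pold2 (-0.41 ± 0.11) were called as well. Without the same LFD 3, LFD 4, HFD 2 or HFD 3 array the count for the fork list was again 0, and it was 3 without propionate HFD 4 and 15 without propionate HFD 1.

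Genes of nucleotide supply and of cell cycle control followed. Of 23 genes of nucleotide supply 6 were called lower, again beside 4.82% of all genes, and 0 higher, with a median of -0.28 and 19 below 0. They were the folate enzyme Mthfd1 (-0.39 ± 0.10), Dhodh of pyrimidine synthesis (-0.28 ± 0.07), the deaminase Dctd (-0.58 ± 0.15), Adsl of purine synthesis (-0.27 ± 0.07) and the salvage kinases Dck (-0.33 ± 0.10) and Tk1 (-0.42 ± 0.13). The 6 calls became 0 without any 1 of the 4 arrays named for the origin list, 1 without propionate HFD 4 and 14 without propionate HFD 1. Over all infusions 1.16% of all genes were called lower and 1.53% higher. Of nucleotide supply the test called Dhodh lower (-0.16 ± 0.04) and Samhd1, which degrades deoxynucleotides, higher (0.39 ± 0.09). Of the origin genes it called Cdc6, the helicase loader, lower (-0.33 ± 0.09), close to the threshold (adjusted p = 0.0474).
Of 22 G1/S regulators 3 were called lower under propionate, where 4.82% of all genes were called lower. They were Cdk2 (-0.41 ± 0.09), E2f8 (-0.72 ± 0.18) and Cdk4 (-0.25 ± 0.07). Called higher was 1 of the 22, Myc (0.49 ± 0.15), where 2.05% of all genes were called higher. The 3 lower calls likewise became 0 without any 1 of those 4 arrays. Of 19 mitotic genes, such as Mki67, Cdk1 and Ccnb2, 0 were called, where 4.82% of all genes were called lower. Of the 19, 18 lay below 0, with a median of -0.19. Without propionate HFD 1, and likewise with array weights, 3 were called lower. Of 13 markers of stem and progenitor cells, such as Lgr5 and Ascl2, 0 were called, with a median of 0.02 and group means of 7.70 ± 0.07 on LFD and 7.66 ± 0.04 on HFD. Of 14 markers of differentiated colonocytes 0 were called, with a median of -0.05. Whether these lists differed from each other was not tested.

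**Figure D3:**
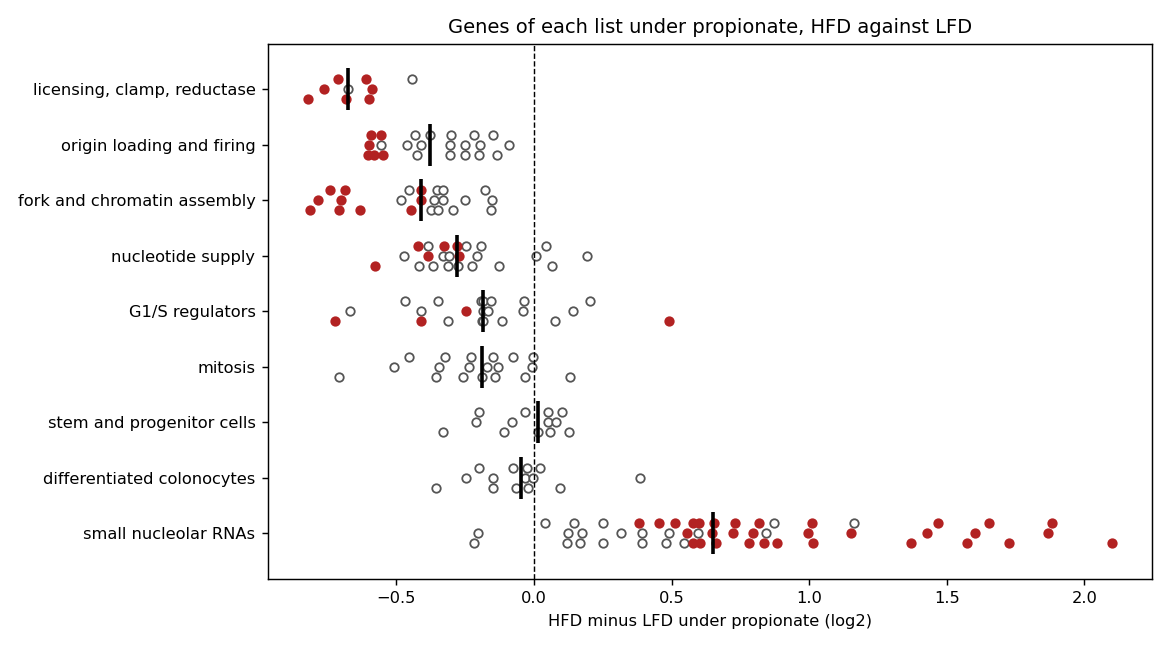
Difference between HFD and LFD under propionate (log2, horizontal axis) of each tested gene of 9 lists; filled points passed the test and thick bars are list medians. Medians run from -0.67 for the licensing, clamp and reductase genes through -0.41 for the fork genes and -0.19 for the mitotic genes to 0.65 for the small nucleolar RNAs.

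Within groups the 9 genes varied together. As deviations from the group mean over 31 arrays, Pearson's r between pairs of the 9 genes ran from 0.67 (Mcm5 and Pcna) to 0.943 (Mcm2 and Mcm3), with a median of 0.847 over 36 pairs. Each gene followed the mean of the other 8 with an r of 0.824 (Pcna) to 0.942 (Mcm4). The mean of the 9 genes followed the origin list with an r of 0.978, the fork list with 0.974, nucleotide supply with 0.871 and G1/S regulators with 0.778. Its r with the mitotic list was 0.558 (rho = 0.538), and it was -0.12 with stem and progenitor markers, 0.02 with differentiated colonocyte markers and -0.27 with small nucleolar RNAs. The other cell type lists lay between -0.26 (pan-epithelial markers) and 0.31 (fibroblast markers, rho = 0.354), with 0.23 for B cell markers. All of these are descriptions over the same 31 arrays, which share their hybridisation and normalization, and the median r over all 12786 other genes was 0.00. Without the 2 arrays farthest from the median, butyrate HFD 2 and propionate HFD 1, the r with the mitotic list was 0.523 and that with the origin list 0.973.

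**Figure D4:**
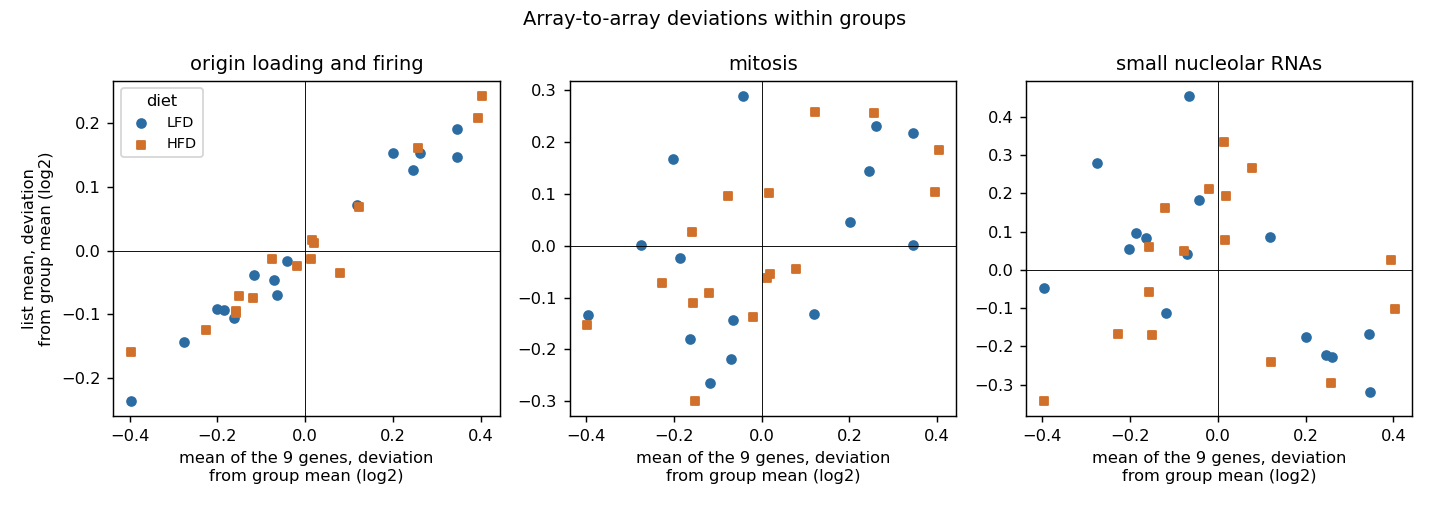
Deviation of each of 31 arrays from its group mean (log2), the mean of the 9 genes on the horizontal axis against the mean of a list on the vertical axis. Points lie along a line for origin loading and firing (r = 0.978), scatter for mitosis (r = 0.558) and show no clear order for small nucleolar RNAs (r = -0.27).

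By the same measure, the genes outside the 9 whose deviations were most like their mean were Nup93 (r = 0.959) and Nup205 of the nuclear pore, the checkpoint kinase Chek1 (0.955), Dtl, an adaptor of the ubiquitin ligase that acts on chromatin-bound Pcna (0.951), Hells, a chromatin remodeller (0.95), Uhrf1, which recognises newly copied methylated DNA (0.942), Cdc45, Fignl1, Wdhd1 and Nme1 (0.926). Only 12 of 12786 genes exceeded an r of 0.9. Under propionate Chek1 (-0.84), Dtl (-0.94), Hells (-0.71), Uhrf1 (-0.71), Nup93 (-0.48), Cdc45 and Wdhd1 were called lower on HFD (adjusted p = 0.0193 to 0.0394). The most opposite were Cda, cytidine deaminase (r = -0.82), Kxd1, Bcas3, Mov10, Naprt, Cipc, Fam189a2, Pink1, Jade2 and Phldb1 (r = -0.79). Of these Bcas3 (0.73), Mov10 (0.58), Cipc (0.41), Fam189a2 (0.43) and Phldb1 (0.45) were called higher on HFD under propionate. In that comparison 4.82% of all genes tested were called lower and 2.05% higher. Both sets were picked by their r with the 9 genes over the same 31 arrays, so their calls are not separate evidence.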

How the data were processed

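The deposited values are log2 intensities summarised by RMA by the authors, per the submitters' processing notes; the sources used here do not state its version or the array's genome build. RNA was amplified as whole-transcript cDNA, per the labels' protocols, and each sample took 1 array. Of 35556 probe sets 21218 had 1 gene symbol, 1881 several and 12457 none listed. For each gene the single-symbol probe set with the highest mean was used. Genes with at least 3 arrays at an intensity of 20 (log2 of 4.32) were tested, 12795 in all. In R 4.3.3, limma 3.58.1 fitted 1 mean per group (8 groups) with intensity-trended moderation, giving 20 two-sided comparisons, each adjusted by Benjamini-Hochberg over all genes tested. The code was tested on simulated data. The 9 genes and all lists were chosen with earlier results of these data known, the small nucleolar RNAs after seeing their values. Named besides the 9 are up to 6 called genes per list and comparison by smallest p, and the 10 genes most and least like the mean of the 9. Small RNAs and gene models without a descriptive name were counted and not named. Alternatives changed the filter, the moderation, weights, probe sets, scaling, the block and the arrays used. Promoters come from RefSeq (GRCm38.p6).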

Additional observations from a re-analysis of the deposited data

Results flagged for a closer look

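In groups of 4 arrays, 5 of 63 gene-by-group sets held an array whose gap to its nearest neighbour was too wide for Dixon's test at the 95% level; chance alone gives about 1 in 20. On butyrate LFD 1 the helicase genes Mcm2 (8.10, the nearest array at 7.70), Mcm3 (7.01, nearest 6.45) and Mcm5 (8.06, nearest 7.54) stood above the other 3 arrays. On butyrate HFD 2 the clamp gene Pcna (9.90, nearest 9.49) and the reductase gene Rrm2 (7.45, nearest 6.51) stood above the other 3. The 9 genes vary together within groups, so these are not 5 separate events. Without butyrate LFD 1 the median diet difference under butyrate was 0.13, and without butyrate HFD 2 it was -0.11.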

How the results depend on the processing

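Outside the 2 diet comparisons named here, 0 of the 9 genes passed under every alternative run. For diet under propionate, the count of 7 genes was 5 to 9 under the other alternatives apart from the small nucleolar RNA covariate, chosen after seeing the data, which gave 0 genes of the 9 and 0 of all genes. The count over all genes (879) was 2652 with array weights and 1326 over all probe sets. Leaving out single arrays gave 0 to 9 of the 9 genes, and 11 (without propionate HFD 2) to 1731 (without propionate HFD 1) of all genes, with 464 without propionate LFD 1, 33 without propionate LFD 3, 114 without propionate LFD 4 and 52 without propionate HFD 3. For diet over all infusions, the count of 1 gene was 0 without the filter, without the trend, over all probe sets, without the 2 smooth muscle arrays and with the covariate, 2 without the 4 small-intestinal arrays, 9 with array weights, and 0 to 3 without single arrays. The 345 genes were 1788 with array weights, 559 without the 4 small-intestinal arrays, 115 without the 2 smooth muscle arrays (both exclusions chosen after seeing the data) and 127 (without acetate LFD 3) to 1027 (without saline LFD 3) without single arrays. In the related lists the genes called lower under propionate (6 origin, 10 fork, 6 nucleotide supply and 3 G1/S genes) were 14, 17, 13 and 6 with array weights and 0 in each with the covariate, and with only the 2 groups compared the nucleotide supply genes were 2. With the stricter filter on dim genes the origin genes were 3. The mitotic genes called lower, 0 in the main fit, were 3 with array weights. They were 1 with the stricter filter and 1 with only the 2 groups compared. Leaving out acetate LFD 3, saline HFD 4, acetate HFD 3 or butyrate HFD 2 gave 1 each time. The cause of these changes was not tested.

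Propionate against saline on LFD changed sign for 4 genes. Mcm4 (0.0853) was -0.0396 with array weights and -0.0373 with the covariate, and Pcna (0.11) was -0.0103 without the 4 small-intestinal arrays. Leaving out single arrays gave -0.0769 to 0.221 for Mcm3, -0.0843 to 0.193 for Mcm4, -0.0345 to 0.185 for Pcna and -0.0183 to 0.316 for Rrm2, the lowest each time without saline LFD 3. Without propionate LFD 4 Mcm3 was -0.012 and Mcm4 -0.00902.

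Same-numbered arrays of different groups deviated together only weakly on average (r of -0.50 to 0.47 over 105 pairs, mean 0.04). Arrays of different groups and different numbers had a mean r of -0.01. Of the 105 pairs 42 exceeded 0.1, and 12 of 31 arrays correlated best with their own number. For small nucleolar RNAs every array numbered 4 lay below its group mean, with deviations of -0.34 to -0.11. Whether the numbers mark anything shared is not stated and was not tested, so they were not taken as pairs. With the replicate number as a block, 7 of the 9 genes passed for diet under propionate (924 of all genes) and 0 for diet over all infusions (454 of all genes); the block changed the count of called genes among the 9 in no other comparison.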
